A study of Bos taurus with 41 samples.

Results

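The comparison set endometrium beside the in vitro produced (IVP) conceptus that had lain on it, in the same wells, at gestation day 16. Members were 14 of the 41 bovine libraries: the 7 endometrial libraries and the 7 IVP conceptus libraries of the co-cultures in which both tissues were sequenced, matched by the culture codes E14-Q1-24, E14-S1-23, E39-Q1-24, E39-S1-23, E69-Q1-62a, E69-S1-62b and E70-S1-62b. The first element of a code names the uterus and the last names the conceptus. Endometrium was taken as 8 mm intercaruncular explants from cyclic Angus-Holstein heifers, which had carried no embryo. IVP conceptuses were recovered from recipient heifers that had received in vitro embryos on Day 7, and each was divided into sections of 5 by 2 mm. A section was laid over an explant for 12 h in RPMI medium with fetal bovine serum, and both tissues were then taken for RNA. Endometrium kept without a conceptus was not analysed here.

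The 7 co-cultures used 4 uteri (E14, E39 and E69 in 2 wells each, E70 in 1) and 4 conceptuses (23, 24 and 62b in 2 wells each, 62a in 1), and a single recipient heifer had carried both 62a and 62b. P-values that treat the libraries as independent are therefore too small. Conceptus E14-Q1-24 carries a treatment label that names medium alone and was grouped by its title, which names the co-culture. Tissue also coincides with the labelled batch date (one date for all endometrium and a later one for all conceptus), with the RNA extraction (Trizol followed by a column for endometrium, a column alone for conceptus) and with the aligner (STAR for endometrium, HISAT2 for conceptus). The study also reported a lower range of RNA integrity numbers for endometrium than for conceptus. These cannot be told apart from tissue, so differences were called only where the adjusted p-value was at most 0.05 and the fold was at least 4 (2 on the log2 scale). In whole tissue, fewer cells of a type and less RNA per cell cannot be told apart either.

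In ruminants the elongating conceptus is a thin tube of trophectoderm lined by hypoblast, with a small embryonic disc of epiblast. Its trophectoderm secretes interferon tau, the signal by which the cow recognises pregnancy. Interferon tau binds a receptor made of the subunits IFNAR1 and IFNAR2 on endometrial cells, where it turns on interferon-stimulated genes and holds back the release of prostaglandin F2 alpha that would end the corpus luteum. The uterine wall answers with secretions from its glands that feed the conceptus, while the trophectoderm also makes Kunitz domain proteins, pregnancy-associated glycoproteins and prostaglandins.

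Counts ran from 28989170 to 84030248 per endometrial library and from 59495204 to 94695900 per conceptus library, and 16084 genes had a row in both tables. These shared genes took 98.033 to 98.452% of endometrial counts and 98.973 to 99.904% of conceptus counts. Levels are CPM, the counts of a gene per 1000000 counts of the shared genes that passed the filter on low counts, after TMM scaling. Across genes, log2 CPM of endometrium and conceptus correlated at 0.558 to 0.597 within a co-culture and at 0.550 to 0.611 over all pairs of libraries of different tissue, against 0.937 to 0.986 between endometrial libraries and 0.924 to 0.978 between conceptus libraries. Endometrium of 3 wells stood apart: E39-S1-23 held 10220 CPM of summed smooth muscle and pericyte transcripts (the others 357.1 to 2374), E70-S1-62b held 52380 CPM of mitochondrially encoded transcripts (the others 10560 to 15450), and E14-Q1-24, the shallowest library, held 24185 CPM of the heat shock gene HSPA1A (the others 2193 to 6723). The part of these in the results was not tested beyond leaving the 3 libraries out, which gave 3112 genes higher and 2521 lower in place of the counts that follow.

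Of 14885 genes tested, 3106 (20.9%) were called higher in endometrium and 2099 (14.1%) lower in endometrium. Of these 5205 genes, 5004 had the same sign in all 7 co-cultures. Differences were large: 955 genes were higher and 438 lower by at least 5 on the log2 scale, and 73 were higher and 58 lower by at least 10. A further 5808 genes were not called and lay within 2-fold. Libraries of the tissues did not overlap in 51.9% of the genes tested. The split of the calls depended on the scaling: 59.7% of calls were on the endometrial side with TMM factors and 76.4% (4172 higher, 1291 lower) when the libraries were set to a housekeeping gene set, which moved the median of all genes to 0.69 from -0.04 on the log2 scale. No call changed its direction under any of the 43 alternatives.

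The marker genes, set beforehand for these tissues, stood on the side of their label in every well. Their side describes the libraries and tests nothing. Triplets of CPM give the lowest, the median and the highest of the 7 libraries of a tissue. DCN (ENSBTAG00000003505), decorin of the stromal matrix, had 1861, 2992 and 3828 CPM in endometrium and 0.338, 0.885 and 3.50 CPM in conceptus, a log2 fold change of 11.21 (SE 0.62, edgeR adjusted p = 2.91e-10). COL3A1 (ENSBTAG00000021466), a fibrillar collagen, had 702, 1354 and 1698 CPM in endometrium against 0, 0.205 and 0.487 CPM in conceptus (12.64, SE 0.69). Neither gene's ranges came near each other, and conceptus E69-S1-62b held the highest conceptus level of both. The antiviral gene RSAD2 (ENSBTAG00000016061) had 3316, 5270.2 and 9179 CPM in endometrium against 0, 0.0770 and 0.430 CPM in conceptus, and 3 conceptus libraries had no count of it. TKDP1 (ENSBTAG00000018122), a trophoblast Kunitz domain protein, had 0, 0.0336 and 1.13 CPM in endometrium and 7173, 41587 and 75523 CPM in conceptus (-17.48, SE 1.34, edgeR adjusted p = 9.81e-09). Its conceptus level was lowest in E14-S1-23 (7173 CPM) and E39-Q1-24 (10747 CPM) and at least 35438 CPM in the other 5 sections. IFNT3 (ENSBTAG00000050661), an interferon tau gene, had 0, 0.0324 and 0.167 CPM in endometrium and 764, 1099 and 2276 CPM in conceptus (-15.03, SE 0.65).

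**Figure D1:**
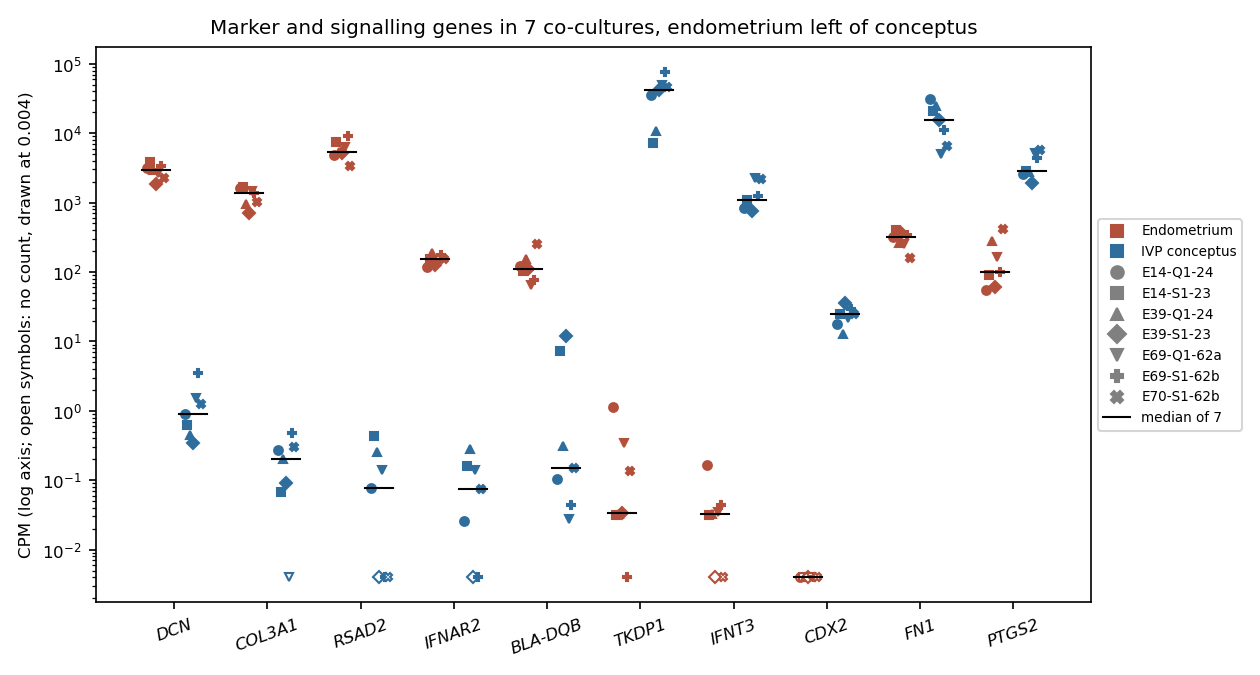
CPM of 10 genes (log axis) in the 7 endometrial libraries (left of each pair, red) and the 7 conceptus libraries (right, blue), with symbols for the co-culture and a black line at the median of 7; open symbols drawn at the bottom had no count. RSAD2 stands between 3316 and 9179 CPM in endometrium and at or below 0.430 CPM in conceptus, TKDP1 at or below 1.13 CPM in endometrium and between 7173 and 75523 CPM in conceptus.

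Of the 10 genes with the largest excess in endometrium, 8 were on the list of interferon-stimulated genes. After RSAD2 the rule for named genes took IFIT1, OAS1X, IFIT3, IFIT2, GBP5, ROBO4, ISG15, OAS1Y and STRA6, with log2 fold changes between 13.03 and 14.80. IFIT1, IFIT2 and IFIT3 encode proteins that bind foreign RNA or block its translation, OAS1X and OAS1Y encode oligoadenylate synthetases, and GBP5 encodes a guanylate-binding protein. IFIT1 had 439, 1039.9 and 1438 CPM in endometrium against 0, 0.0280 and 0.0862 CPM in conceptus. ISG15, a ubiquitin-like protein, had 2995, 3938 and 6477 CPM in endometrium against 0, 0.308 and 0.895 CPM in conceptus. None of these ranges overlapped. ROBO4, a receptor of endothelial cells, had 236, 332 and 566 CPM in endometrium and 0, 0 and 0.119 CPM in conceptus. STRA6, the receptor for retinol-binding protein, had 19.4, 67.9 and 108 CPM in endometrium and 3 counts in all over the 7 conceptus sections (ratio 11502, 95% Poisson interval 3936 to 55776, counting error only).

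For the largest excess in conceptus the rule took PAG2, TKDP4, PAG11, TKDP1, PAG12, FETUB, PINLYP, FGA, IFNT3 and C9H6orf58, of which 5 are on the Kunitz and glycoprotein list and 1 on the interferon tau list. PAG2 and PAG11, pregnancy-associated glycoproteins related to aspartic proteases, had 0, 0 and 0.0217 CPM and 0, 0.0445 and 0.133 CPM in endometrium, against 992, 2119.6 and 3935 CPM and 3825, 6399.5 and 20353 CPM in conceptus. PAG2 rested on 2 counts over the 7 endometrial libraries (conceptus to endometrium ratio 459670, 95% Poisson interval 127250 to 3795700). PAG12 had no count in endometrium and 1.03, 198 and 1224 CPM in conceptus, so that its level was at least 40346-fold lower in endometrium, taking 3 counts over the 7 libraries as the floor (at least 20210-fold without its highest section, E69-Q1-62a). FETUB, the plasma protein fetuin B, had 0, 0 and 0.0650 CPM in endometrium and 1279, 2057 and 5071 CPM in conceptus. FGA, the fibrinogen alpha chain, had no count in endometrium and 0.400, 50.6 and 365 CPM in conceptus, a level at least 16251-fold lower in endometrium, or 8981-fold without its highest section, E39-Q1-24. Its lowest section, E39-S1-23, stood far under the other 6 (32.0 to 365 CPM). C9H6orf58 rested on 2 endometrial counts (conceptus to endometrium ratio 24810, interval 6868 to 204870).

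Described by lists of genes, the tissues parted along their cell types. Among endometrial cell types, 19 of 21 tested stromal fibroblast and matrix genes, 10 of 11 endothelial genes, 9 of 13 leukocyte genes and 7 of 11 smooth muscle and pericyte genes were called higher in endometrium, where 20.9% of all genes were, and 1 gene of these lists was lower. The median log2 fold changes of the lists were 7.04, 5.78, 4.54 and 4.06, against -0.04 over all genes tested. On the conceptus side stood 7 of 8 Kunitz domain and pregnancy-associated glycoprotein genes, 33 of 46 cell cycle genes, 18 of 24 epithelial keratin and junction genes, 15 of 31 trophoblast transcription factors and 15 of 26 hypoblast genes, where 14.1% of all genes were called lower. The median of the Kunitz and glycoprotein list was -17.40, or -16.39 with genes at 0 counts set to their bound. The plot of list medians orders all 35 lists. Counts of calls in every list below are to be read beside 20.9% higher and 14.1% lower over all genes. Counts in all lists leave out members with no conceptus row. These were 17 for chemokines, 13 for interferon-stimulated genes, 10 for the Kunitz and glycoprotein list, 9 for leukocyte genes and 8 for MHC class II genes.

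**Figure D2:**
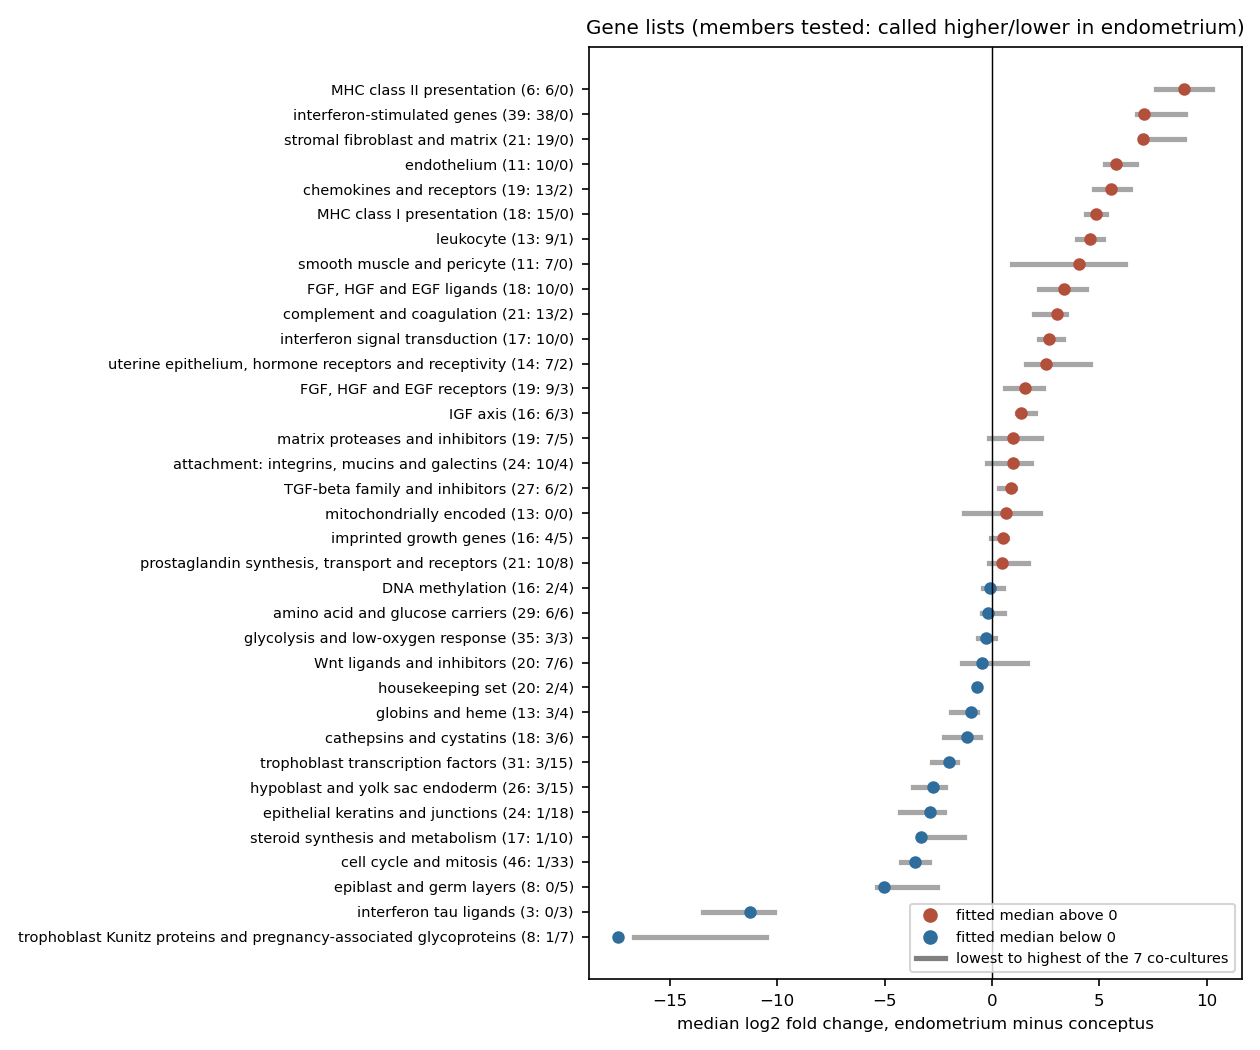
Median log2 fold change (endometrium minus conceptus) of the tested members of 35 gene lists, as points (red above 0, blue below 0), with grey bars for the lowest to highest median of log2 CPM differences in the 7 co-cultures; brackets give the members tested and those called higher/lower in endometrium. Lists run from MHC class II presentation at 8.93 to Kunitz and pregnancy-associated glycoproteins at -17.40, where the point lies below the bar (the differences add a prior count of 1, the fitted values do not).

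Interferon tau transcripts stood on the conceptus side, and those of its receptor and of the response on the endometrial side. Of 4 interferon tau genes with a row in both tables, the 3 that passed the filter on low counts were lower in endometrium. The gene removed, IFN-TAU, had 7 counts over the endometrial libraries and 82 over the conceptus libraries. IFNT2 had 0, 0.0890 and 0.174 CPM in endometrium and 95.1, 134 and 453 CPM in conceptus, and IFN-tau-c1 had 0, 0.0217 and 0.356 CPM in endometrium and 66.3, 77.9 and 170.4 CPM in conceptus. A further interferon tau gene, IFNT, had a row in the conceptus table only and stood at 345.1, 550.7 and 1104 CPM there. Reads of these near-identical genes may have been split between them by the counting, as may those of the PAG and TKDP genes. The receptor subunit IFNAR1 had 119, 154 and 201 CPM in endometrium and 9.81, 34.3 and 52.5 CPM in conceptus (2.38, SE 0.34, edgeR adjusted p = 1.04e-05). The difference was far wider for IFNAR2, the subunit that binds the ligand first, with 117, 156 and 189.8 CPM in endometrium against 0, 0.0749 and 0.280 CPM in conceptus (10.47, SE 0.61, edgeR adjusted p = 4.86e-10), and 3 conceptus sections had at most 0.0257 CPM.

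Downstream of the receptor, 10 of 17 signal transduction genes were higher in endometrium and none lower (median 2.65). JAK1, a kinase bound to the receptor, had 396, 566 and 807 CPM in endometrium and 71.7, 84.2 and 114 CPM in conceptus. IRF9, the DNA-binding part of the transcription factor complex of the pathway, had 381, 488 and 753 CPM in endometrium and 2.03, 3.83 and 5.99 CPM in conceptus. The transcription factor IRF1 had 485, 618 and 1286 CPM in endometrium against 0.399, 2.14 and 7.15 CPM in conceptus (8.05, SE 0.67). Ranges of these genes did not overlap, and of the 3 JAK1 had the smallest fold change (2.65, SE 0.18).

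Of 39 interferon-stimulated genes tested, 38 were higher in endometrium and none lower, with a median log2 fold change of 7.09. MX1, a dynamin-like antiviral GTPase, had 1706, 2600.2 and 3585 CPM in endometrium and 0.138, 0.586 and 3.88 CPM in conceptus, and its relative MX2 had 362, 1126 and 2477 CPM in endometrium and 0, 0.998 and 1.63 CPM in conceptus. ZNFX1, an RNA helicase, had 929.9, 1441 and 1730.3 CPM in endometrium and 13.3, 32.9 and 40.2 CPM in conceptus, and PARP12, an ADP-ribosyltransferase, had 894, 1422 and 1836 CPM in endometrium and 16.0, 20.6 and 51.6 CPM in conceptus. The members differed in how far they stood from 0 in conceptus: the IFIT genes, RSAD2 and ISG15 were under 1 CPM in every section, whereas the lowest conceptus level was 13.3 CPM for ZNFX1 and 16.0 CPM for PARP12. Summed over the list, endometrium held 23890 to 39660 CPM and conceptus 441 to 633.8 CPM.

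Well by well, the interferon-stimulated sum in endometrium was 31650 CPM in E14-Q1-24, 37280 in E14-S1-23, 29490 in E39-Q1-24, 28860 in E39-S1-23, 30220 in E69-Q1-62a, 39660 in E69-S1-62b and 23890 in E70-S1-62b. The interferon tau sum of the partner conceptus covers the 3 genes tested and leaves out IFNT, which had no endometrial row. It was 1008 CPM in E14-Q1-24, 1322 in E14-S1-23, 1047 in E39-Q1-24, 936.9 in E39-S1-23, 2900 in E69-Q1-62a, 1478 in E69-S1-62b and 2514 in E70-S1-62b. The well with the lowest endometrial sum held a conceptus with the second highest interferon tau sum, and the highest endometrial sum lay in the well with the third highest. No correlation was computed, since wells share uteri and conceptuses.

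**Figure D3:**
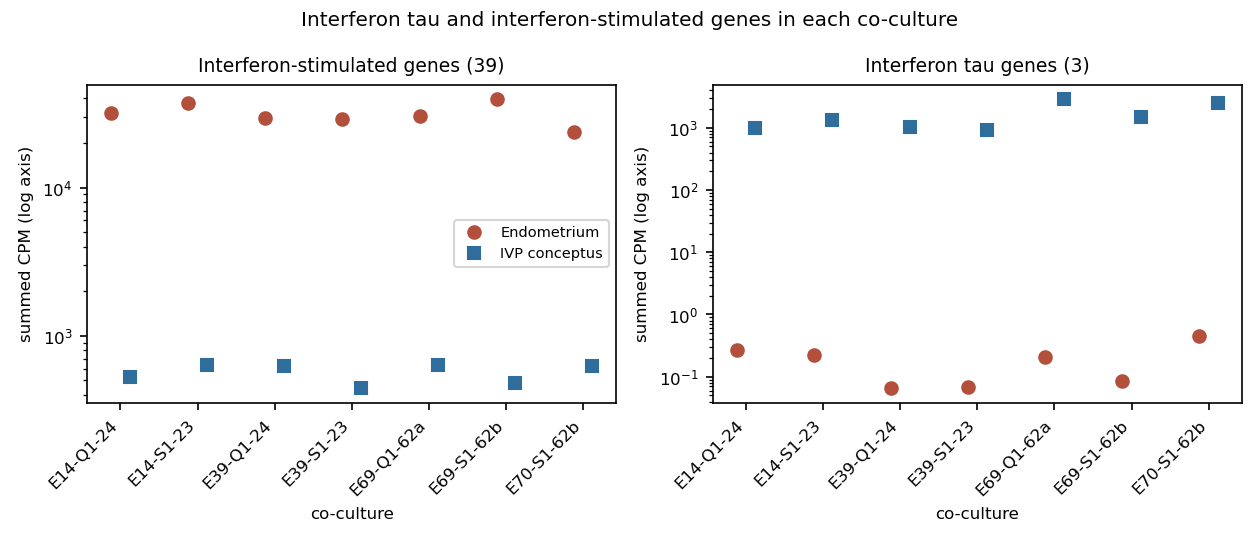
Summed CPM (log axes) of 39 interferon-stimulated genes (left panel) and 3 interferon tau genes (right panel) in endometrium (red) and conceptus (blue) of each co-culture. Endometrial interferon-stimulated sums lie between 23890 and 39660 CPM and conceptus interferon tau sums between 936.9 and 2900 CPM, with no overlap between tissues in either panel.

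Antigen presentation stood on the endometrial side. Of 18 MHC class I pathway genes, 15 were higher in endometrium and none lower (median 4.87). The class I heavy chains BOLA and JSP.1 had 671, 1302 and 1638 CPM and 643, 1494 and 2427 CPM in endometrium, against 0.306, 0.752 and 1.47 CPM and 0.723, 2.26 and 5.08 CPM in conceptus. B2M, their light chain, had 771, 960.3 and 1788 CPM in endometrium and 8.08, 19.8 and 64.5 CPM in conceptus. Class I genes are close relatives, so reads may have been shared among them. The 3 members not called, which act as general chaperones of the endoplasmic reticulum, carried most of the summed level in conceptus.

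All 6 tested MHC class II genes were higher in endometrium (median 8.93), and 8 further members had no conceptus row. BOLA-DRA, a class II alpha chain, had 162, 263 and 489.6 CPM in endometrium and 0, 0.0443 and 0.108 CPM in conceptus, and CD74, the invariant chain, had 272, 426 and 868 CPM in endometrium and 0.215, 0.374 and 1.17 CPM in conceptus. CTSS, a cathepsin that trims the invariant chain, had 132, 211 and 297 CPM in endometrium and 0.0615, 0.283 and 0.528 CPM in conceptus. BLA-DQB, a class II beta chain, departed from this pattern in conceptus. It had 64.8, 109 and 257 CPM in endometrium (5.46, edgeR adjusted p = 6.17e-04), while in conceptus it stood at 7.38 CPM in E14-S1-23 and 12.1 CPM in E39-S1-23, both sections of conceptus 23, and at or below 0.313 CPM in the other 5 sections.

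In the stroma, COL1A2 and COL6A1, fibrillar and microfibrillar collagen chains, had 497, 684 and 1223 CPM and 358, 963 and 1808 CPM in endometrium, against 0.125, 0.949 and 3.39 CPM and 0.215, 1.52 and 4.44 CPM in conceptus. PDGFRB, a growth factor receptor of fibroblasts and pericytes, had 242, 733 and 1292 CPM in endometrium and 0.158, 0.561 and 6.64 CPM in conceptus. In the vessels, CDH5 (the junction protein VE-cadherin) had 597, 679 and 821 CPM in endometrium and 0.0873, 0.333 and 4.24 CPM in conceptus, and VWF, the clotting factor of endothelium, had 163, 208 and 351 CPM in endometrium and 0.246, 3.39 and 14.8 CPM in conceptus. These genes did not overlap between the tissues. EGFL7 and FLT1, both also known from trophoblast, differed less, with 248, 336 and 516 CPM and 456, 590.3 and 902 CPM in endometrium and 8.18, 10.2 and 57.4 CPM and 33.2, 108 and 209 CPM in conceptus.

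Smooth muscle transcripts varied most between endometrial explants. DES, the intermediate filament desmin, had 43.6, 72.8 and 3945 CPM in endometrium, the highest in E39-S1-23 and the next in E14-S1-23 (514 CPM), and 0.308, 1.53 and 14.6 CPM in conceptus. CNN1 and MYH11, contractile proteins, had 124, 304 and 1104 CPM and 13.1, 83.9 and 695 CPM in endometrium, against 1.40, 6.08 and 23.3 CPM and 0.424, 1.32 and 5.43 CPM in conceptus. ACTA2, smooth muscle actin, overlapped between the tissues (22.0, 57.6 and 1058 CPM in endometrium and 6.62, 9.56 and 34.3 CPM in conceptus). Without endometrium of E39-S1-23, 7 of 11 genes were called higher and the list median was 2.90, against 4.06 with it. Among leukocyte genes, the monocyte receptor CD14 had 64.8, 87.7 and 132 CPM in endometrium and 0.753, 2.70 and 9.72 CPM in conceptus, and CD68 of macrophage lysosomes had 32.9, 59.5 and 82.9 CPM in endometrium and 0.487, 1.32 and 3.30 CPM in conceptus. AIF1, a macrophage gene by its usual use, went the other way, with 0.941, 1.72 and 2.25 CPM in endometrium and 5.09, 15.2 and 47.0 CPM in conceptus (-3.74, SE 0.45).

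Genes of the uterine epithelium, of hormone receptors and of receptivity leaned to the endometrium, with 7 of 14 higher and 2 lower (median 2.54). Over all genes, 20.9% were higher and 14.1% lower. A further 8 genes of this list had no conceptus row and could not be compared. PGR, the progesterone receptor, had 42.4, 58.3 and 90.8 CPM in endometrium and 0.846, 1.27 and 1.88 CPM in conceptus (5.61, SE 0.25, edgeR adjusted p = 3.65e-11). GRP, a gastrin-releasing peptide secreted by glands, had 32.1, 186 and 1224 CPM in endometrium and 0.133, 0.475 and 1.26 CPM in conceptus. SPP1, the adhesion protein osteopontin, had 38.3, 80.4 and 246 CPM in endometrium and 0.0280, 0.861 and 1.80 CPM in conceptus, and LIFR, the receptor for leukemia inhibitory factor, had 26.1, 47.4 and 151 CPM in endometrium and 0.0443, 0.126 and 0.499 CPM in conceptus. The members against this direction were FOXA2, which glands need in the mouse, and PRLR, the prolactin receptor. FOXA2 had 1.85, 5.16 and 11.1 CPM in endometrium and 7.85, 22.3 and 66.0 CPM in conceptus, with overlapping ranges. Its call was lost in 9 alternatives (log2 fold change between -1.99 and -1.46), among them the scaling with no factor, the housekeeping scaling, sums per uterus and conceptus, and the data without uterus E14, uterus E39 or conceptus 24. PRLR was low in both tissues (0, 0.336 and 0.615 CPM in endometrium and 0, 1.77 and 13.6 CPM in conceptus), and its call was lost in voom with the co-culture as a block (log2 fold change -2.64).

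Epithelial keratins and junction genes were lower in endometrium in 18 of 24 cases and higher in 1. KRT8, KRT18 and KRT19, keratins of simple epithelia, had 60.5, 152 and 419 CPM, 33.3, 98.3 and 226 CPM and 48.5, 106 and 329 CPM in endometrium, against 6359, 10084 and 13807 CPM, 4354, 9544 and 15028 CPM and 5696, 7567 and 10747 CPM in conceptus. The tight junction gene CLDN4 had 70.1, 138 and 521 CPM in endometrium and 1125, 1294 and 1441 CPM in conceptus, and the desmosome gene DSP had 11.8, 29.5 and 71.0 CPM in endometrium and 457, 729.9 and 1168 CPM in conceptus. None of the ranges overlapped. Within endometrium the keratin and junction sum ran from 692.1 CPM in E39-Q1-24 to 3345 CPM in E70-S1-62b. CLDN10 was the member with the opposite direction (0.822, 2.86 and 9.91 CPM in endometrium and 0, 0 and 0.0679 CPM in conceptus).

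Among 31 trophoblast transcription factors, 15 were lower and 3 higher in endometrium (median -1.999). CDX2, a factor that sets up trophectoderm, had no count in any endometrial library and 12.9, 24.6 and 35.7 CPM in conceptus, a level at least 3131-fold lower in endometrium. GATA3 had 1.36, 2.91 and 6.57 CPM in endometrium and 58.9, 98.2 and 357 CPM in conceptus, and PPARG, a lipid-sensing nuclear receptor, had 1.92, 5.57 and 6.91 CPM in endometrium and 12.4, 25.4 and 34.7 CPM in conceptus. With the housekeeping scaling PPARG fell short of the fold called (log2 fold change -1.54). HAND1 was close to 0 in endometrium (0, 0 and 0.0433 CPM) and ranged widely in conceptus (9.90, 77.1 and 848 CPM). The factors on the other side were ETS2, TBX3 and EOMES. ETS2 had 393, 547 and 729 CPM in endometrium and 55.4, 119.5 and 172 CPM in conceptus, a call that fell just under the fold of 4 without conceptus 62b (1.99 on the log2 scale), TBX3 had 104, 386 and 802 CPM in endometrium and 33.5, 44.9 and 102 CPM in conceptus, and EOMES had 1.63, 2.07 and 3.43 CPM in endometrium and 0, 0.0154 and 0.0862 CPM in conceptus. Of the Kunitz and glycoprotein list, PAG1 was the gene higher in endometrium (3.07, 7.56 and 13.8 CPM against 0.0700, 0.443 and 0.645 CPM in conceptus), and its symbol is also that of a membrane adaptor protein of lymphoid cells unrelated to the glycoproteins. Another gene with the symbol PAG1 (ENSBTAG00000054180) had no conceptus row and no count in endometrium.

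Hypoblast and yolk sac genes were lower in endometrium in 15 of 26 cases and higher in 3. APOA1, an apolipoprotein made by extraembryonic endoderm, had 2.58, 5.54 and 31.7 CPM in endometrium and 1244, 3296 and 5706 CPM in conceptus, and LAMB1, a chain of basement membrane laminin, had 51.0, 92.7 and 130.3 CPM in endometrium and 779.9, 1635 and 1985 CPM in conceptus. PDGFRA and SOX7, which also mark fibroblasts and endothelium, were higher in endometrium (163, 398 and 832 CPM and 47.8, 67.0 and 119 CPM, against 1.15, 5.15 and 43.5 CPM and 0.948, 1.69 and 1.97 CPM in conceptus). Epiblast and germ layer genes were lower in endometrium in 5 of 8 cases and higher in none. LIN28A and LIN28B, RNA-binding proteins of embryonic cells, had 1 and 2 counts over the endometrial libraries and 36.1, 62.4 and 134 CPM and 3.22, 5.84 and 15.7 CPM in conceptus. POU5F1, a pluripotency factor, had 0, 0 and 0.0632 CPM in endometrium and 0.337, 1.89 and 5.22 CPM in conceptus, and DPPA4 had no count in endometrium and 0.730, 1.76 and 4.40 CPM in conceptus (at least 283-fold lower in endometrium). TDGF1, a co-receptor for nodal, overlapped between the tissues (0.866, 3.32 and 6.72 CPM in endometrium and 4.98, 23.8 and 75.9 CPM in conceptus).

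Prostaglandin genes stood on both sides, with 10 of 21 higher and 8 lower in endometrium. PTGS2, the inducible cyclooxygenase, had 55.3, 101 and 422 CPM in endometrium and 1891, 2839.5 and 5755 CPM in conceptus (-4.43, SE 0.50, edgeR adjusted p = 7.50e-07). AKR1B1, a prostaglandin F synthase of bovine endometrium, had 16.9, 34.2 and 72.6 CPM in endometrium and 363, 1615 and 2947 CPM in conceptus, and PTGES, a prostaglandin E synthase, had 6.87, 10.3 and 17.2 CPM in endometrium and 65.3, 113 and 469 CPM in conceptus. The transporter SLCO2A1 also stood higher in conceptus (11.8, 17.3 and 42.5 CPM in endometrium and 44.5, 119 and 407 CPM in conceptus), short of the fold called with the housekeeping scaling (log2 fold change -1.95). On the endometrial side were the constitutive cyclooxygenase PTGS1 (9.46, 13.6 and 16.3 CPM in endometrium and 0.155, 0.259 and 0.448 CPM in conceptus), the degrading enzyme HPGD (13.3, 19.5 and 22.7 CPM in endometrium and 0.0998, 0.430 and 2.08 CPM in conceptus) and the receptor PTGER4 (6.44, 7.48 and 8.38 CPM in endometrium and 0, 0.0923 and 0.280 CPM in conceptus).

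Steroid synthesis stood on the conceptus side, with 10 of 17 genes lower and 1 higher in endometrium (median -3.30). CYP11A1, which makes pregnenolone from cholesterol, had 0.162, 0.575 and 0.646 CPM in endometrium and 33.7, 86.0 and 424 CPM in conceptus, and HSD3B1, which makes progesterone from it, had 0.0158, 0.0348 and 0.0890 CPM in endometrium and 13.9, 25.4 and 58.4 CPM in conceptus. HSD17B1, an enzyme of estradiol synthesis, had 1.86, 3.82 and 6.03 CPM in endometrium and 32.0, 58.5 and 397 CPM in conceptus. CYP19A1, the aromatase, had no count in endometrium and 0.192, 4.62 and 24.5 CPM in conceptus (at least 861-fold lower in endometrium, or 468-fold without its highest section, E69-Q1-62a). STAR, the carrier of cholesterol into mitochondria, overlapped between the tissues (1.48, 2.19 and 3.10 CPM in endometrium and 1.11, 21.2 and 629 CPM in conceptus) and was lower in conceptus than in endometrium in 1 well, and its call was lost in voom with the co-culture as a block (log2 fold change -3.20). The opposite direction was seen in HSD11B2, which inactivates cortisol, with 4.38, 8.54 and 10.3 CPM in endometrium and 0, 0.108 and 0.321 CPM in conceptus.

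Growth factor ligands leaned to the endometrium, with 10 of 18 higher and none lower (median 3.37). VEGFA had 949, 1231 and 1498 CPM in endometrium and 59.2, 104 and 161 CPM in conceptus, VEGFC, the lymphatic growth factor, had 38.3, 59.3 and 116 CPM in endometrium and 0, 0.0513 and 0.317 CPM in conceptus, and CSF1, the macrophage growth factor, had 74.3, 132 and 287 CPM in endometrium and 0.0308, 0.0998 and 1.40 CPM in conceptus. Receptors also leaned to the endometrium, 9 of 19 higher and 3 lower, against 20.9% and 14.1% of all genes. FGFR3 and FGFR4, receptors for fibroblast growth factors, were lower in endometrium (2.91, 4.23 and 6.27 CPM and 0.157, 0.269 and 0.453 CPM, against 47.3, 129 and 357 CPM and 3.19, 5.36 and 6.58 CPM in conceptus), while IL6ST, the signal chain shared by the receptors for interleukin 6 and leukemia inhibitory factor, had 182, 322 and 466 CPM in endometrium and 31.0, 58.8 and 121 CPM in conceptus. Its call fell just under the fold of 4 without conceptus 23 (1.99).

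In the insulin-like growth factor axis, 6 of 16 genes were higher and 3 lower in endometrium, against 20.9% and 14.1% of all genes. The ligand IGF2 had 447, 586 and 918 CPM in endometrium and 50.8, 134 and 213 CPM in conceptus, and the binding proteins IGFBP3 and IGFBP4 had 2157, 2760.5 and 4078 CPM and 484, 689 and 975 CPM in endometrium, against 13.7, 97.5 and 259 CPM and 19.4, 56.6 and 188 CPM in conceptus. STC1, stanniocalcin, had 1115, 1602 and 2107 CPM in endometrium and 0.738, 1.44 and 14.8 CPM in conceptus. Lower in endometrium were the clearance receptor IGF2R (10.1, 14.1 and 17.4 CPM in endometrium and 69.1, 126 and 221 CPM in conceptus) and the mRNA-binding proteins IGF2BP1 (0, 0.0324 and 0.133 CPM in endometrium and 196, 285 and 336 CPM in conceptus) and IGF2BP3 (1.54, 3.54 and 10.3 CPM in endometrium and 50.4, 66.5 and 104 CPM in conceptus).

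In the TGF-beta family, 6 of 27 genes were higher and 2 lower in endometrium, a share of higher calls close to the 20.9% of all genes. The receptors TGFBR3 and TGFBR2 had 145, 727 and 1613 CPM and 137, 243 and 376 CPM in endometrium, against 7.78, 13.9 and 29.0 CPM and 10.4, 21.0 and 39.3 CPM in conceptus, and the ligand BMP7 had 0.601, 4.44 and 10.4 CPM in endometrium and 32.9, 108 and 218 CPM in conceptus. Of 20 Wnt ligands and inhibitors, 7 were higher and 6 lower in endometrium. The secreted inhibitors DKK3 and SFRP1 were higher (55.9, 273 and 458 CPM and 58.4, 209 and 424 CPM in endometrium, against 0.185, 0.624 and 1.40 CPM and 1.86, 7.53 and 41.2 CPM in conceptus), and the ligands WNT6 and WNT4 were lower (0.974, 1.77 and 3.32 CPM and 2.27, 5.29 and 9.59 CPM in endometrium, against 13.4, 68.3 and 163 CPM and 11.7, 27.6 and 250.2 CPM in conceptus).

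Attachment genes were mixed, with 10 of 24 higher and 4 lower in endometrium. Their share of lower calls was close to the 14.1% of all genes, while 20.9% of all genes were higher. FN1, the matrix protein fibronectin, had 158, 317 and 405 CPM in endometrium and 4985, 15612 and 31408 CPM in conceptus (-5.79, SE 0.46, edgeR adjusted p = 1.48e-08). ITGAV, an integrin chain that binds fibronectin and osteopontin, had 15.0, 32.1 and 41.7 CPM in endometrium and 110.4, 145 and 346 CPM in conceptus, LGALS3, a galectin, had 103.3, 136 and 213 CPM in endometrium and 917, 1412 and 2041 CPM in conceptus, and BSG, the membrane protein basigin, had 157, 191 and 323 CPM in endometrium and 585, 1040.5 and 1949 CPM in conceptus. With the housekeeping scaling ITGAV (-1.93) and BSG (-1.81) fell short of the fold called. Osteopontin itself stood on the endometrial side. Matrix proteases and inhibitors were split 7 higher and 5 lower of 19. MMP14, a membrane-bound collagenase, and PLAT, the tissue plasminogen activator, had 443, 840.3 and 1931 CPM and 336, 529 and 1092 CPM in endometrium, against 46.5, 72.7 and 175 CPM and 0.154, 0.499 and 9.81 CPM in conceptus. MMP9, a gelatinase, had 0, 0.0316 and 0.0445 CPM in endometrium and 0.400, 1.01 and 5.68 CPM in conceptus.

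Cathepsins and cystatins were lower in endometrium in 6 of 18 cases and higher in 3, where 14.1% and 20.9% of all genes were. CTSL, a lysosomal protease, had 0.601, 1.235 and 1.75 CPM in endometrium and 447, 913 and 1836 CPM in conceptus, and CTSD, another, had 78.0, 108 and 136 CPM in endometrium and 1009.7, 2217 and 8420.4 CPM in conceptus. CTSK, a collagen-degrading member of the same family, had 212, 389 and 782 CPM in endometrium and 1.48, 2.41 and 2.91 CPM in conceptus.

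Chemokines and their receptors were higher in endometrium in 13 of 19 cases and lower in 2 (median 5.53). Log2 fold changes ran from -4.091 to 12.86, and 17 further members had no conceptus row. The members described next were all on the endometrial side. CCL2, which draws monocytes, had 73.9, 171 and 319.8 CPM in endometrium and 0, 0 and 0.0647 CPM in conceptus. CX3CL1 and CXCL2 had 57.1, 66.7 and 106 CPM and 40.1, 93.8 and 108 CPM in endometrium, against 0, 0 and 0.140 CPM and 0.250, 0.490 and 2.27 CPM in conceptus, and the scavenging receptor ACKR3 had 122, 208 and 289.8 CPM in endometrium and 1.89, 6.09 and 11.1 CPM in conceptus. Complement and coagulation genes were higher in 13 of 21 cases and lower in 2 (median 3.05). C1S, a protease of the classical pathway, had 169, 366 and 832 CPM in endometrium and 18.5, 31.6 and 53.0 CPM in conceptus, and TFPI2, an inhibitor of serine proteases, had 1346, 1827 and 2638 CPM in endometrium and 4.73, 18.8 and 24.7 CPM in conceptus. F2R, a thrombin receptor, was lower in endometrium (6.94, 12.6 and 19.4 CPM against 25.3, 154 and 351 CPM in conceptus).

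Some genes were shared. SLC2A3, the glucose transporter GLUT3, was abundant in both tissues, with 6037, 9300.2 and 13893 CPM in endometrium and 4041, 8361 and 12013 CPM in conceptus (0.23, SE 0.25, edgeR adjusted p = 0.423), overlapping ranges and a higher level in endometrium in 5 of 7 wells. Other carriers parted the tissues: SLC7A8, an amino acid transporter, had 4.27, 6.68 and 10.9 CPM in endometrium and 356, 491 and 1155 CPM in conceptus, and SLC2A5, a fructose transporter, had 0, 0.0697 and 0.334 CPM in endometrium and 10.9, 18.6 and 26.3 CPM in conceptus. Over 29 carriers, 6 were higher and 6 lower in endometrium, shares near the 20.9% and 14.1% of all genes. Of 35 glycolysis and low-oxygen genes, 3 were higher and 3 lower, smaller shares than over all genes. ENO1 and PKM, glycolytic enzymes, were lower in endometrium by less than the fold called (1446, 1932 and 2215 CPM and 1493, 1831 and 2307 CPM in endometrium, against 2285, 4100.2 and 4577 CPM and 2394, 3466 and 4363 CPM in conceptus), while SLC16A1, a lactate carrier, had 54.2, 77.6 and 85.8 CPM in endometrium and 1069.8, 1322 and 3074 CPM in conceptus. Of 20 housekeeping genes, 2 were higher and 4 lower, and the list median was -0.70, a direction that turned to 0.02 when the same list set the scaling. No mitochondrially encoded gene of 13 was called in either direction, and 2 were called lower without the 3 endometrial libraries that stood apart, of which E70-S1-62b held the most of these transcripts.

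Proliferation genes stood on the conceptus side: 33 of 46 cell cycle genes were lower and 1 was higher in endometrium (median -3.60). MKI67, the proliferation antigen Ki-67, had 0.400, 0.845 and 1.11 CPM in endometrium and 96.2, 119 and 171 CPM in conceptus (-7.29, SE 0.29). TOP2A, a topoisomerase of dividing cells, had 0.554, 1.21 and 1.96 CPM in endometrium and 178, 224 and 345 CPM in conceptus, and MCM5, a subunit of the replication helicase, had 4.30, 5.57 and 8.04 CPM in endometrium and 92.7, 122 and 252 CPM in conceptus. The single member on the other side was CDKN1A, an inhibitor of the cell cycle, with 579.9, 828 and 1028 CPM in endometrium and 61.4, 111 and 223 CPM in conceptus. Ranges of the 4 genes did not overlap.

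Imprinted growth genes went both ways, with 4 of 16 higher and 5 lower in endometrium, the share of higher calls being close to the 20.9% of all genes. CDKN1C, a cell cycle inhibitor, had 5.98, 13.0 and 26.5 CPM in endometrium and 72.9, 256 and 759.6 CPM in conceptus, and PLAGL1 and SGCE had 20.7, 31.6 and 50.6 CPM and 13.7, 24.0 and 35.6 CPM in endometrium, against 0.399, 0.597 and 4.03 CPM and 0.0615, 0.351 and 1.12 CPM in conceptus. Of 16 DNA methylation genes, 2 were higher and 4 lower. The share of higher calls was no larger than over all genes, and that of lower calls was above their 14.1%. Log2 fold changes in this list ran from -6.127 to 4.801. MBD2, a methyl-CpG-binding protein, was 1 of the 2 higher members (279, 484 and 660.1 CPM in endometrium, against 12.8, 15.1 and 23.8 CPM in conceptus). Of 13 globin and heme genes, 3 were higher, again close to the share of all genes, and 4 lower: HMOX1, which breaks down heme, had 172, 244 and 373 CPM in endometrium and 733, 2269.5 and 5993 CPM in conceptus, and EPOR, the erythropoietin receptor, had 2.07, 2.21 and 4.19 CPM in endometrium and 0, 0.126 and 0.420 CPM in conceptus.

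Since the tissues had lain on each other, the level of each tissue's genes in its partner was taken as a percent of the level in that partner. TKDP1 in endometrium stood at a median of 0.000301% of the partner conceptus and at most 0.0032%, and IFNT3 at a median of 0.00288% and at most 0.0201%. The highest endometrial levels of both were in E14-Q1-24 (1.13 and 0.167 CPM). In the other direction, RSAD2 in conceptus stood at a median of 0.00157% of the partner endometrium and at most 0.00578%, and DCN at a median of 0.0278% and at most 0.106%. The 5 other endometrial libraries of IVP co-cultures, which have no conceptus partner here, were set beside the 7 matched ones per 1000000 counts of shared genes with no further factor. On that scale TKDP1 ran from 0 to 1.19 CPM in the matched libraries and from 0 to 0.860 CPM in the others, and IFNT3 from 0 to 0.175 CPM and from 0 to 0.162 CPM. RSAD2 ran from 3503 to 10290 CPM in the matched libraries and from 3080 to 7341 CPM in the others, and DCN from 2236 to 4020 CPM and from 1651 to 5203 CPM.

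Conceptus sections that had been cultured without endometrium gave the level of the endometrial marker lists with no endometrium in the well. For the 4 conceptuses, the summed CPM of a list was compared between 7 sections on endometrium and 4 alone, with an exact two-sided sign permutation test whose smallest possible p is 0.125. TMM factors were set here over the conceptus table alone, so that levels of a section differ slightly from those above. Stromal genes summed to 105 to 284.6 CPM on endometrium and 86.97 to 407.4 CPM alone (mean log2 difference 0.16 ± 1.07, SD, n = 4, exact p = 0.875). Smooth muscle genes differed by 0.50 ± 0.88 (exact p = 0.375), endothelial genes by -0.10 ± 0.87 (exact p = 0.875), leukocyte genes by -0.51 ± 0.52 (exact p = 0.25) and MHC class II genes by 0.69 ± 1.43 (exact p = 0.5, SD, n = 4 in each). MHC class II sums were 1.541 to 14.21 CPM on endometrium and 1.512 to 2.147 CPM alone, and 2 of 4 conceptuses were higher on endometrium. In the scaling used above, the highest sums on endometrium, 8.906 and 14.05 CPM, were those of conceptus 23. Without single conceptuses the MHC class II difference ran from 0.0232 to 1.08. The interferon-stimulated sum was 446 to 657.7 CPM on endometrium and 531.2 to 702.8 CPM alone (0.02 ± 0.09, SD, n = 4, exact p = 0.75). RSAD2 ranged from 0 to 0.434 CPM on endometrium and from 0.0412 to 0.428 CPM alone, and DCN from 0.342 to 3.56 CPM on endometrium and from 0.405 to 1.41 CPM alone. No list could reach a p of 0.05 in this design. The sums also held genes that conceptus tissue expressed by itself. Without endometrium the stromal sum was at least 86.97 CPM, while DCN reached 1.41 CPM. A small carry-over of endometrial transcripts could therefore not be seen in these sums.

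Genes without a row in the conceptus table could not be compared. Among them, 892 had a mean of at least 1 CPM in the matched endometrial libraries and 229 a mean of at least 10 CPM, and they held 1.55 to 1.97% of the endometrial counts. The interferon-stimulated genes IFITM1 and IFI27 averaged 707.6 ± 275 CPM and 476 ± 71.9 CPM in endometrium (SD, n = 7 each). ESR1, the estrogen receptor, averaged 59.7 ± 19.4 CPM (SD, n = 7), and OXTR, the oxytocin receptor through which prostaglandin release is triggered, stood at 4.37, 15.3 and 98.1 CPM. LIF, the ligand of LIFR, averaged 72.1 ± 15.0 CPM and the chemokine CXCL10 39.4 ± 19.7 CPM (SD, n = 7 each).

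Libraries of one tissue also differed among themselves. The median SD of log2 CPM over genes was 0.41 in endometrium and 0.534 in conceptus, and the SD was larger in conceptus in 65.7% of genes. In conceptus, the 3 sections of 62a and 62b, from one recipient, did not overlap with the 4 sections of 23 and 24 in 2662 genes (17.9%), and the endometrial libraries of the same wells did not overlap in 1758 genes (11.8%). Sections of 62a and 62b held 8076 to 11999 CPM of TKDP4, against 21.8 to 2645 CPM in sections of 23 and 24. HAND1 stood at 208 to 848 CPM in sections of 62a and 62b and at 9.90 to 77.1 CPM in those of 23 and 24, and PTGS2 at 4460 to 5755 CPM against 1891 to 2840 CPM. FN1 had the opposite order, with 4985 to 11207 CPM in sections of 62a and 62b and 15612 to 31408 CPM in those of 23 and 24. These wells also differed in their uteri (E69 and E70 against E14 and E39), so that conceptus, recipient and uterus cannot be told apart here, and no test was made.

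**Figure D4:**
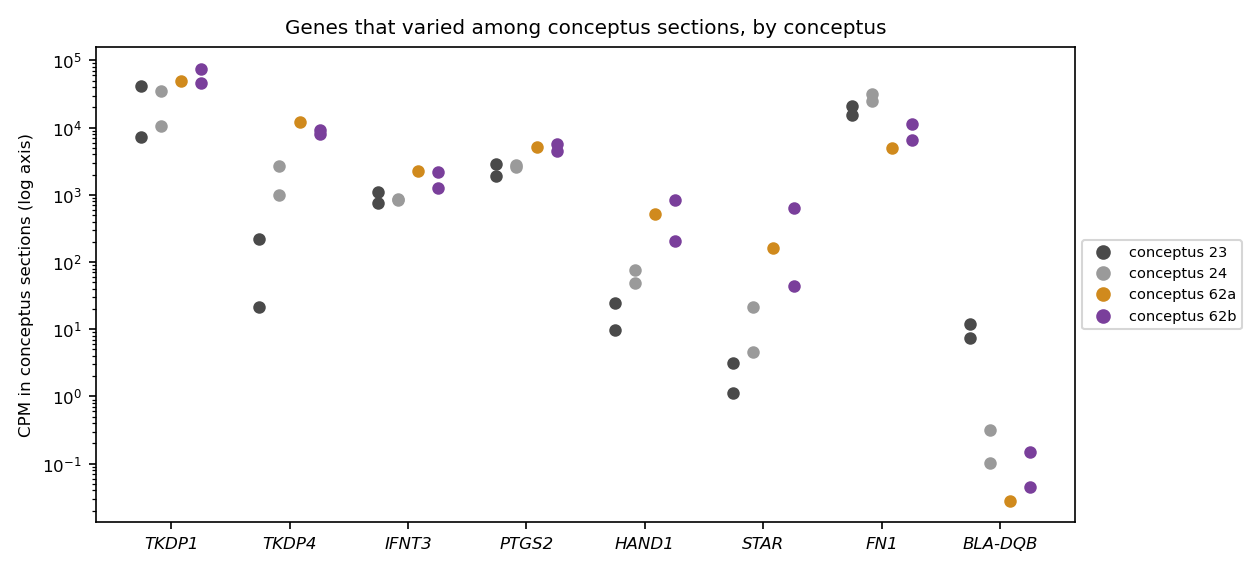
CPM (log axis) of 8 genes in the 7 conceptus sections, coloured by conceptus (2 sections of 23, 24 and 62b, 1 of 62a). TKDP1, TKDP4, PTGS2, HAND1, STAR and IFNT3 are higher in every section of 62a and 62b than in any of 23 and 24, and FN1 is lower. TKDP1 is lowest in single sections of 23 and 24, and BLA-DQB is above 7 CPM only in conceptus 23.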

How the data were processed

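RNA-seq libraries were poly(A)-selected and stranded. Per the labels and methods, the authors trimmed reads with Trimmomatic, aligned them to ARS-UCD1.2 with STAR (endometrium) or HISAT2 (conceptus) and deposited raw counts per gene from featureCounts. Versions, the strand setting of the counting and the handling of multiply aligned reads are not given in the sources used here. The conceptus table holds 16149 genes, the smallest mean count being 2.483, and 65 of them have no row in the endometrial table. In the endometrial table there are 27270 genes, 1 empty row (not used) and 28 columns that match no sample here (not used).

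Tables were joined by Ensembl ID (16084 genes). Of these, 1971 had no symbol and 68 had different symbols in the tables. In R 4.3.3, edgeR 4.0.16 was applied to the 14 libraries: filterByExpr (minimum count 10, minimum total 15; 1199 genes removed), TMM factors, a quasi-likelihood test of tissue without a block, and Benjamini-Hochberg adjustment over 14885 genes. The procedure was run on simulated independent libraries with few changed genes. That run cannot show its error rates for libraries that share uteri and conceptuses and differ in many genes. Log2 CPM used a prior count of 1. Fold bounds take 3 counts over a group as the floor, and ratios with 1 to 3 counts carry 95% Poisson intervals. Both cover counting error only. P-values measure the spread between sections and explants, several of which come from one conceptus or uterus.

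Members and the 35 gene lists were chosen with earlier results of these data known. The genes named are 19 chosen by name (markers, interferon, hormone and prostaglandin genes), the 10 highest and 10 lowest called log2 fold changes with a symbol, the same sign in all 7 wells and at least 50 CPM in the higher tissue, and, per list, up to 5 members of highest mean and up to 2 called against its direction. HAND1, PTGER4, PTGS1, HPGD, CYP19A1, HSD3B1, ITGAV, MKI67, HSPA1A, IFNT, IFITM1, IFI27, LIF and CXCL10 were chosen after their values were seen. Alternatives were RLE size factors, no factor, a housekeeping scaling, whole-table library size, other filters, folds of 2 and 8, glmTreat, DESeq2 1.42.0, limma 3.58.1 voom, the co-culture as a block, sums per animal, and leaving out each library, well, uterus and conceptus.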

Additional observations from a re-analysis of the deposited data

Results flagged for a closer look

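Among 222 groups of 7 values (log2 differences of the named genes by well, list sums by library and library totals), 12 (5.41%) held a value whose gap to its nearest neighbour exceeded the 95% limit of Dixon's test, and chance flags about 5% of groups. Of these, 6 were single genes with 1 well far from the others, as log2 CPM in endometrium minus conceptus. FGA stood at -4.785 in E39-S1-23 and between -14.57 and -11.05 in the other wells. HSD3B1 stood at -10.89 in E14-S1-23 (the others -9.036 to -8.023), MX2 at 16.7 in E39-S1-23 (9.088 to 12.27), PAG1 at 6.477 in E69-Q1-62a (3.295 to 4.39), PLAGL1 at 2.358 in E70-S1-62b (4.758 to 6.385) and PTGER4 at 8.745 in E14-Q1-24 (4.686 to 6.29). The lowest conceptus level of both MX2 and PTGER4 was 0 CPM, where a log2 difference rests on the prior count.

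Endometrium of E70-S1-62b was far from the other endometrial libraries in 3 list sums. It held 2145 CPM of uterine epithelium, hormone receptor and receptivity genes (the others 365 to 923.2), 848.1 CPM of globin and heme genes (327.2 to 482.7) and 52380 CPM of mitochondrially encoded genes (10560 to 15450). Endometrium of E39-S1-23 held 10220 CPM of smooth muscle and pericyte genes (357.1 to 2374). In conceptus, E70-S1-62b held 2151 CPM of imprinted growth genes (707.2 to 1270) and E69-Q1-62a held 28350 CPM of mitochondrially encoded genes (9135 to 16380).

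Outside the comparison, the 5.8S ribosomal RNA, which has no row in the endometrial table, had 742283 counts in conceptus E14-S1-23 and 11134 in the conceptus library with the next highest count.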

How the results depend on the processing

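Over 43 alternatives, 1 of them (leaving out 3 endometrial libraries) chosen after seeing the data, no called gene changed its direction. The 3106 genes higher in endometrium became 4172 with the housekeeping scaling, 3471 with no factor, 4579 at a fold of 2, 2082 at a fold of 8 and 2354 with glmTreat. The 2099 genes lower became 1291, 1700, 4338, 1110 and 1447. DESeq2 gave 3218 higher and 1999 lower, and leaving out libraries, wells, uteri or conceptuses gave 3024 to 3261 higher and 2057 to 2292 lower. With the co-culture as a replicate block, 3262 were higher and 2063 lower. The libraries of a well, paired by their culture code, did not deviate together (correlation of deviations -0.0246 to 0.0627, consensus correlation 0.0128 in voom). These correlations cannot show whether libraries came from the same well. Of 147 called genes named here, 137 kept their call in every alternative other than the fold thresholds. The exceptions were BSG, ITGAV, PPARG and SLCO2A1 with the housekeeping scaling, PRLR and STAR in voom with the block, IL6ST without conceptus 23, ETS2 without conceptus 62b, FOXA2 in 9 alternatives, and HSPA1A without the 3 endometrial libraries that stand apart (1.99).

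List medians near 0 turned. With no factor, carriers stood at 0.1152, glycolysis at 0.0418 and DNA methylation at 0.2208. With the housekeeping scaling, carriers stood at 0.5608, glycolysis at 0.4749, DNA methylation at 0.6566, Wnt genes at 0.1804 and the housekeeping set at 0.02325. Prostaglandin genes stood at -0.2003 with a mean of at least 1 CPM, and mitochondrially encoded genes at -0.0809 without the 3 libraries. Leaving out libraries or animals moved carriers from -0.5525 to 0.3134 and DNA methylation from -0.2539 to 0.04272.

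For conceptus on endometrium against alone, the smallest possible p was at least 0.125, so no setting could pass 0.05. Signs turned between settings. Stromal genes gave -0.0626 with no factor, -0.00501 by median log2 CPM and -0.326 to 0.489 without single conceptuses. Endothelial genes gave 0.354 by median log2 CPM and -0.404 to 0.22 without single conceptuses. Leukocyte genes gave 0.174 by median log2 CPM. Interferon-stimulated genes gave -0.191 with no factor, -0.625 by median log2 CPM and -0.00667 to 0.0643 without single conceptuses. The causes were not tested. Genes at 0 counts are limited by depth to 0.00733 CPM over the endometrial libraries and 0.00576 CPM over the conceptus libraries.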
